A study of Mus musculus with 13 samples.

Results

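CD45- thymic stroma of 2-mo C57BL/6 wild-type mice at steady state is described here from 4 bulk RNA-seq libraries, chosen as the untreated libraries of a series of 13. The other 9 libraries come from CD45- cells of mice of the same age and strain taken 1, 4 or 7 days after sublethal total body irradiation (TBI), with 3 libraries per day. The labels call the mice of the 4 libraries untreated, and the columns of the count matrix call them phosphate-buffered saline (PBS) controls. The columns were PBS day 1 replicate 2, PBS day 4 replicate 2, PBS day 7 replicate 1 and PBS day 7 replicate 2, and values are given below in this order. All 4 were profiles of polyadenylated RNA from CD45- cells sorted from dissociated thymus, so each value is an average over all cells that the sort let through. In such a bulk profile, fewer cells of a type and less RNA per cell cannot be told apart.

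The thymus is the organ in which T cells mature, and its nonhematopoietic stroma builds the niches in which this happens. Thymic epithelial cells (TECs) present self antigens and supply Notch ligands and cytokines under the control of the transcription factor FOXN1, with cortical TECs (cTECs) acting in positive selection and medullary TECs (mTECs) in tolerance. Fibroblasts (FBs) of the capsule and the medulla lay down collagen matrix and make growth factors, endothelial cells (ECs) line the vessels through which progenitors enter, and mesothelial cells cover the organ. CD45, encoded by Ptprc, is carried by leukocytes but not by mature erythroid cells, so removal of CD45+ cells alone does not take erythroid cells out. The study's methods for sequencing describe magnetic depletion of CD45+ cells, lysis of red cells and then flow sorting, and an antibody to erythroid cells is among those listed for sorting, but whether it was used for these libraries is not given in the sources used here.

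Levels are given as TPM, a share of the library's transcripts for which each gene's count is divided by its exonic length so that genes can be compared with each other. Total counts were 40665013, 48419232, 44078906 and 22501215. In the 4 libraries 17116, 14586, 16461 and 15304 genes reached 1 TPM. The names of the columns close with tags whose meaning is given in no source. PBS day 1 replicate 2 and PBS day 7 replicate 1 carry the tag mm (the mm pair), and PBS day 4 replicate 2 and PBS day 7 replicate 2 carry tags that begin with k (the k pair). Pearson's r of log2 CPM (counts scaled to the library total) across genes was 0.960 within the mm pair, 0.961 within the k pair and between 0.876 and 0.951 across them, so no library was a copy of another. The first principal component held 69.9% of the variance and placed both libraries of the mm pair on one side and both of the k pair on the other. Results below are therefore given for each library, and the tag and any other difference between these pairs cannot be told apart with 4 libraries. The order of the pairs depended on the scale. In TPM, 32.5% of the 11065 genes with a mean of at least 5 TPM were higher in both libraries of the mm pair than in both of the k pair, and 24.2% were lower in both. After division by TMM factors (trimmed mean of M-values), 17.2% were higher and 48% lower. These factors are computed from counts and are meant to set most genes level in CPM. TPM has a total of its own, and dividing it by them did not set most genes level between the pairs. Neither scale is therefore taken as the correct one. Counts of genes by this order are given in TPM and are read against these shares, with the count after TMM where it differs.

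The 150 bases before the start of 5 lineage genes whose levels are described below are shown to place each gene on the genome. They come from RefSeq (GRCm38.p6), are written 5′ to 3′ on the strand of the gene, and hold in capitals every match to TATAAA or CCAAT on either strand. Col3a1 (fibrillar collagen, chr1:45311388-45311537, plus strand) and Pdgfra (a receptor that marks FBs, chr5:75152101-75152250, plus strand) stand for FBs, Epcam (an adhesion molecule, chr17:87635829-87635978, plus strand) and Foxn1 (chr11:78386609-78386758, minus strand) for TECs, and Upk3b (a uroplakin, chr5:136038346-136038495, plus strand) for mesothelium.
Col3a1: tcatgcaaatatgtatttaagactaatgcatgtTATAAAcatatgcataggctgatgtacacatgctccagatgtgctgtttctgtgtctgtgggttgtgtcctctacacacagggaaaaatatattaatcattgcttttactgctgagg
Pdgfra: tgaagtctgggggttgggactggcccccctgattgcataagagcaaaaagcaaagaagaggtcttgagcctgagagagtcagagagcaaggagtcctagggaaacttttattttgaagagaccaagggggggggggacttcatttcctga
Epcam: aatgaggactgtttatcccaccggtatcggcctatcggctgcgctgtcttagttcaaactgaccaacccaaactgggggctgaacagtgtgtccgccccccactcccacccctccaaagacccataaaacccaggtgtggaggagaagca
Foxn1: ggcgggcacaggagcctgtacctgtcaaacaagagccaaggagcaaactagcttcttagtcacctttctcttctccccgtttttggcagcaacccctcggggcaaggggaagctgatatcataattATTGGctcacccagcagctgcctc
Upk3b: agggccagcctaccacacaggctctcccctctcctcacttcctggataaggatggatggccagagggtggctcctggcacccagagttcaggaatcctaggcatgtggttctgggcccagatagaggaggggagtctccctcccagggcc
Col3a1 held 1 TATAAA, at base -117 counted from the start, and Foxn1 held 1 CCAAT on the opposite strand, at base -24. Over the 250 bases before the start, TATAAA lay in 12.4% of all 32851 promoters and in 18.5% of the 92 promoters of the 100 most abundant nuclear genes, of which 74 had an entry. CCAAT lay in 33.9% of all promoters and in 37.0% of these. The 2 motifs share no letters in a row long enough to overlap as a full match, and a match is a description of these letters only.

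The steady-state profile was led by globins, ferritin, matrix genes of FBs, complement genes and MHC class I. In every library a small number of genes held a large share: the 10 most abundant genes took 26.4%, 17.6%, 22.4% and 18.7% of TPM, and 222, 286, 293 and 285 genes were enough to reach 50% of TPM. Of the 30 most abundant genes, 5 were mitochondrial and 25 nuclear. Of the 30 most abundant nuclear genes, 28 were protein-coding, and 18 stood among the first 30 in each of the 4 libraries. They included 6 of the 8 genes of the FB list, 5 of the 8 measured genes of the erythroid list, 2 of 6 complement genes and 1 of 5 MHC class II genes, and no gene of the TEC or EC lists. In the plot of the 30 most abundant nuclear genes, the order of genes was firm only at its head. Of the 29 steps from one gene to the next, 2 were larger than the larger SD of both genes: those from Hbb-bs to Gm23935 and from Hba-a1 to Gsn.

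**Figure D1:**
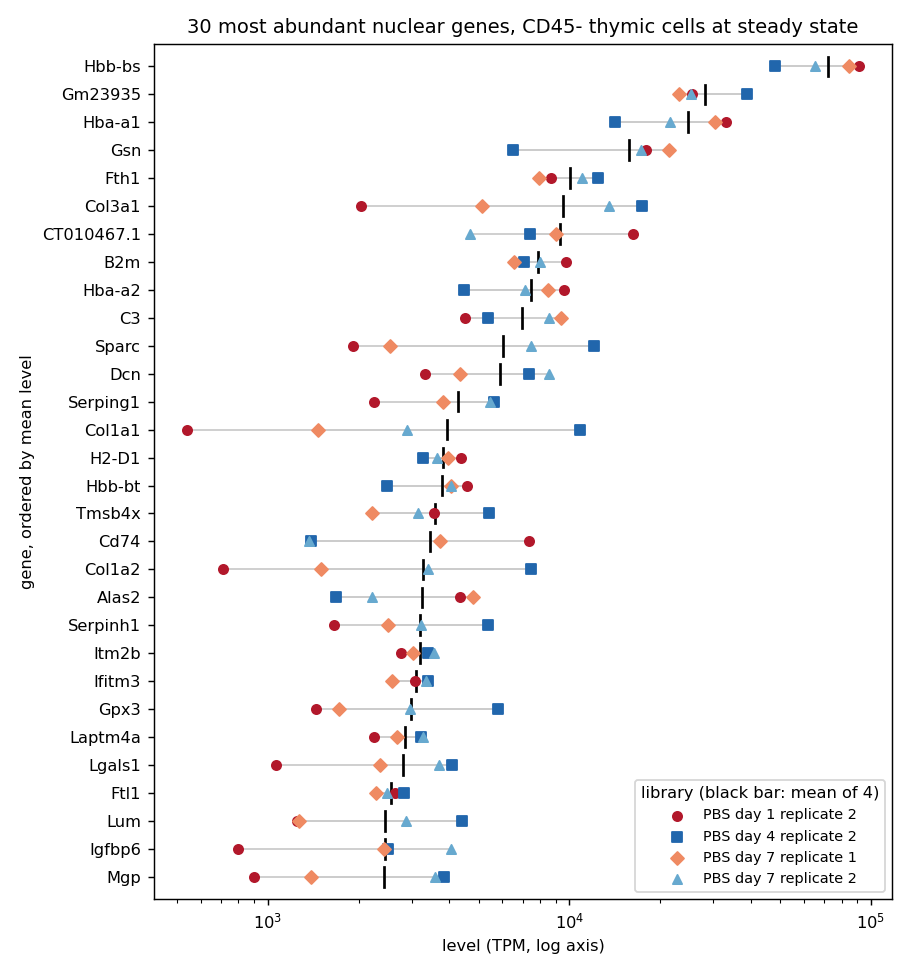
Level in TPM (log axis) of the 30 nuclear genes with the highest mean over the 4 steady-state libraries, with 1 symbol per library and a black bar for the mean. Globin genes lie close together in the 4 libraries, while Col1a1 runs from 541 to 10862 TPM.

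The 4 globin genes were the most abundant family. Hbb-bs, the adult beta globin (chr7:103826534-103828096, minus strand), stood at 91149, 47993, 84820 and 65137 TPM, with a mean of 72275 ± 19614 (SD, n = 4). Hba-a1, an adult alpha globin (chr11:32283511-32284465, plus strand), stood at 32999, 14188, 30506 and 21521 TPM. Both were higher in each library of the mm pair than in each of the k pair. Hba-a2 stood at 9614, 4486, 8515 and 7119 TPM and Hbb-bt at 4595, 2489, 4047 and 4054 TPM, and the alpha and beta genes are near-identical copies within their families, so the split of reads between copies is uncertain. Alas2, which makes the first step of heme synthesis in red cells, followed at 4349, 1684, 4787 and 2210 TPM. The 8 measured erythroid genes summed to 142792, 70879, 132769 and 100103 TPM, with a highest-to-lowest ratio of 2.01. Slc4a1, the anion exchanger of the red cell membrane (36.3, 17.4, 52.5 and 26.04 TPM), was present at a far lower level than globin, and Klf1, the transcription factor of red cell precursors, had a mean of 0.76 TPM.

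Gsn, which encodes the actin-severing protein gelsolin (chr2:35256380-35307892, plus strand), was the nuclear gene of highest mean level outside the globins apart from Gm23935. It stood at 17940, 6516, 21357 and 17215 TPM, with a mean of 15757 ± 6420 (SD, n = 4), and was lowest in PBS day 4 replicate 2. Gsn went the other way from the matrix genes of its list, being higher in the mm pair in TPM, but the pairs overlapped after TMM. Gm23935, an annotated microRNA gene of 57 bases on chromosome 16 (chr16:11144125-11144181, plus strand), stood at 25415, 38681, 23129 and 25274 TPM from only 20851, 32909, 18486 and 10102 counts. Its rank among nuclear genes was 2 by TPM and 224 by CPM, so its place follows from the division by a very short length. CT010467.1, an annotated ribosomal RNA on chromosome 17, stood at 16252, 7395, 9026 and 4673 TPM and ranked 8 among nuclear genes by CPM, in libraries whose molecule is labelled polyA RNA.

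Fth1 and Ftl1, the heavy and light chains of the iron store ferritin, were both high and moved little. Fth1 stood at 8719, 12482, 7937 and 11042 TPM and Ftl1 at 2644, 2826, 2280 and 2494 TPM. B2m, the light chain of MHC class I, stood at 9780, 7060, 6572 and 8021 TPM, and its partner H2-D1, a class I heavy chain, at 4372, 3284, 3957 and 3651 TPM. The class I genes are close relatives of each other, and reads shared between them are uncertain. Ifitm3, an interferon-induced membrane protein that restricts virus entry, stood at 3066, 3401, 2586 and 3354 TPM.

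FB matrix genes made up much of the rest of the leading genes. Col3a1, the fibrillar collagen type III chain (chr1:45311538-45349706, plus strand), stood at 2040, 17436, 5121 and 13491 TPM, with a mean of 9522 ± 7158 (SD, n = 4). It was higher in both libraries of the k pair than in both of the mm pair, with a highest-to-lowest ratio of 8.55. Col1a1, a chain of type I collagen (chr11:94936224-94953042, plus strand), stood at 541, 10862, 1462 and 2898 TPM and its partner Col1a2 at 709.6, 7445, 1496 and 3404 TPM. Both were highest in PBS day 4 replicate 2 and lowest in PBS day 1 replicate 2, with ratios of 20.1 and 10.5. Sparc, a matrix protein that binds collagen (chr11:55394500-55423183, minus strand), stood at 1910, 12112, 2551 and 7485 TPM. Serpinh1, the chaperone that folds procollagen in the endoplasmic reticulum, stood at 1664, 5376, 2504 and 3225 TPM. The small proteoglycans that coat collagen fibrils were nearer to each other in the 4 libraries: Dcn stood at 3332, 7374, 4339 and 8556 TPM and Lum at 1248, 4397, 1268 and 2864 TPM. Mgp, an inhibitor of calcification, stood at 897, 3836, 1390 and 3585 TPM, and Gpx3, a secreted peroxidase of intermediate FBs, at 1446, 5812, 1727 and 2971 TPM.

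Complement was the other secreted group among the leading genes. C3, the central complement component (chr17:57203970-57228136, minus strand), stood at 4524, 5381, 9375 and 8538 TPM, and Serping1, which inhibits the first complement protease, at 2258, 5604, 3815 and 5462 TPM. Of the 6 complement genes listed, 4 were lower in both libraries of the mm pair than in both of the k pair, 0 were higher and 2 were mixed, and 5 were lower after TMM. C4b stood at 131, 1292, 555 and 1005 TPM, a ratio of 9.87 between the highest and the lowest library. C3 was highest in both PBS day 7 libraries.

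The lineages of the stroma were all present, at very unequal summed levels. The FB list summed to 26200, 54509, 35543 and 48905 TPM, mesothelial genes to 676, 2402, 4116 and 4517 TPM, TEC genes to 4483, 1301, 3144 and 1437 TPM, pericyte and smooth muscle genes to 1338, 1554, 788 and 621 TPM, and EC genes to 1008, 713, 1057 and 758 TPM. A summed level depends on the genes chosen and their number, so sums of different lists say how much of the RNA these genes took and not how many cells of each lineage there were. Of the lists, the EC list was among the steadiest, with a highest-to-lowest ratio of 1.48, against 3.45 for TECs and 6.68 for mesothelium. The plot of cell type lists shows the TEC symbols of the mm pair to the right of those of the k pair and the FB symbols in the opposite order.

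**Figure D2:**
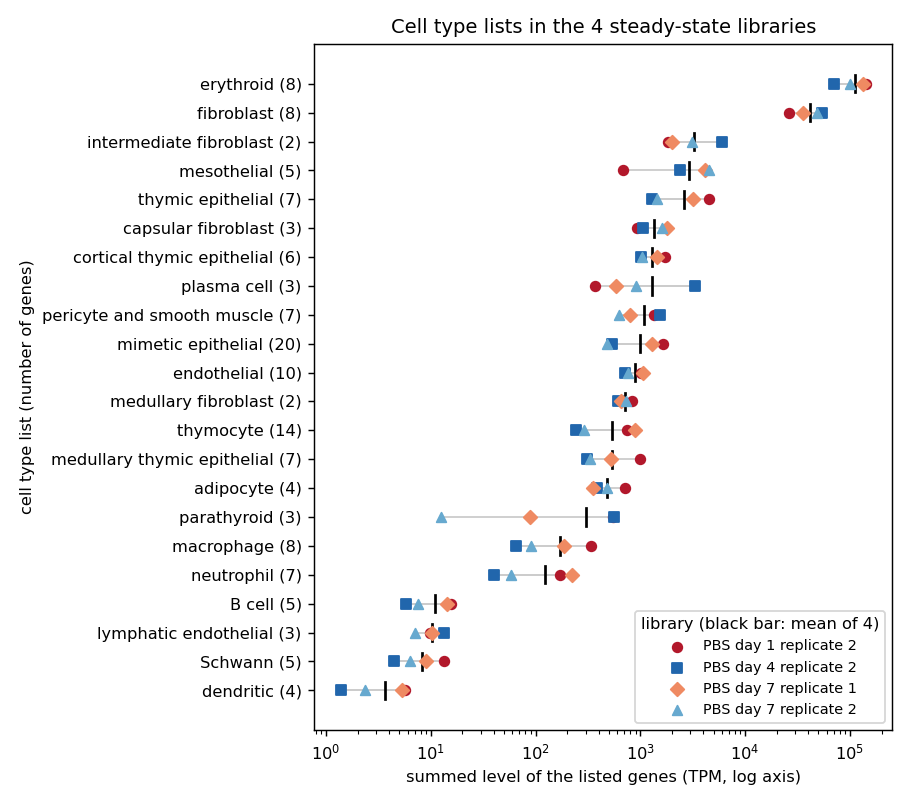
Summed TPM (log axis) of each cell type list in the 4 steady-state libraries, with the number of genes in brackets and a black bar for the mean. Erythroid and FB genes lead, and the parathyroid list has the widest range, from 12.4 to 562 TPM.

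For FBs, the receptor gene Pdgfra behaved differently from the collagen genes that the lineage secretes, while the receptor gene Pdgfrb shared their order. Pdgfra stood at 214, 176, 292 and 222 TPM, an SD of 0.19 on the log2 scale of normalized CPM. Pdgfrb stood at 175, 302, 206 and 254 TPM, higher in both libraries of the k pair. Col3a1, Col1a1 and Col1a2 had SDs of 1.53, 1.95 and 1.596 on the same scale. Across the 9 other collagens, those of the fibrils and their partners followed Col3a1: Col5a1 (124, 656, 206 and 496 TPM), Col5a2, Col6a1, Col6a2, Col6a3 and Col14a1 (115, 711, 302 and 581 TPM) were higher in both libraries of the k pair. The basement membrane collagens Col4a1 (647, 373, 655 and 374 TPM) and Col4a2 (420.1, 311, 434 and 253 TPM) and the vessel-associated Col15a1 were lower there, but after TMM only Col4a1 of these 3 was. Of 12 small proteoglycans and matrix glycoproteins, 8 were higher in both libraries of the k pair, 1 was lower (Sparcl1, at 1437, 348, 1174 and 921 TPM) and 3 were mixed. Fn1, fibronectin, was the member with the widest range, at 152, 1532, 909.9 and 995 TPM.

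Markers of FB subsets did not share one order. The capsular FB genes Dpp4 (67.4, 100.05, 221 and 196 TPM), Smpd3 (57.1, 101, 215 and 187 TPM) and Pi16 (796, 866, 1363 and 1224 TPM), the last a marker of adventitial FBs, were all higher in both PBS day 7 libraries than in the other 2, in TPM and after TMM. Of all 11065 genes with a mean of at least 5 TPM, 2066 had this division in TPM and 1563 after TMM. All 5 mesothelial genes had the same division in TPM, but 2 of 5 after TMM, where Nkain4, Msln and Wt1 were instead lower in both libraries of the mm pair than in both of the k pair. Upk3b stood at 191, 725, 1521 and 1609 TPM, Msln (mesothelin) at 267, 741, 916 and 1229 TPM and Lrrn4 at 91.7, 338, 949 and 747 TPM. Nkain4 and Wt1 were lowest in PBS day 1 replicate 2 as well, so all 5 mesothelial genes were lowest in that library, and the sum was 6.68 times as high in PBS day 7 replicate 2. The medullary FB genes Ptn (495, 183, 325 and 249 TPM), a growth factor, and Postn (339, 435, 332 and 477 TPM), a matrix protein, went opposite ways between the pairs.

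TEC genes were present in all 4 libraries and higher in the mm pair for every member of the list. Epcam stood at 241, 43.8, 178 and 52.99 TPM, with a mean of 129 ± 96.4 (SD, n = 4). The keratin pair of simple epithelia, Krt8 and Krt18, stood at 1276, 353, 946 and 386 TPM and 1534, 467, 1075 and 539 TPM, and the basal keratins Krt5 and Krt14 at 758, 195, 512 and 229 TPM and 422, 191, 272 and 169.9 TPM. Foxn1, the master regulator of TECs, stood at 93.3, 10.5, 40.3 and 16.5 TPM, so that the ratio between the highest and lowest library was 8.86 for Foxn1 against 5.49 for Epcam. All 7 genes were highest in PBS day 1 replicate 2.

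Genes of cTECs and mTECs followed the general TEC genes. Psmb11, the catalytic subunit of the thymoproteasome, stood at 114, 25.9, 87.8 and 37.95 TPM, and Prss16, the thymus-specific serine protease, at 593, 138, 503 and 179.9 TPM. Ccl25, which draws T cell progenitors, stood at 168, 36.1, 99.1 and 46.3 TPM, and Dll4, the Notch ligand that commits progenitors to the T lineage, at 62.2, 28.8, 48.9 and 30.5 TPM. Of the 6 cTEC genes, 5 were higher in both libraries of the mm pair, the exception being Ctsl (712, 765, 655 and 732 TPM), a lysosomal protease that many cell types make. Among 7 mTEC genes, 6 were higher in the mm pair, and 5 after TMM. Aire, which drives expression of tissue antigens, stood at 48.9, 2.12, 14.04 and 5.22 TPM, a ratio of 23.1 between the highest and lowest library, and Fezf2, another regulator of such antigens, at 94.97, 8.88, 38.01 and 9.55 TPM. Ccl21a, the chemokine that guides positively selected thymocytes, was the most abundant mTEC gene, at 671, 164, 263 and 179 TPM. Cldn3 was mixed, at 88.1, 104, 137 and 105 TPM.

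Mimetic TECs, mTEC-derived cells that take on programs of peripheral tissues, were read from genes of the programs listed. Of 20 listed genes, 17 had a mean of at least 1 TPM, and 15 were higher in both libraries of the mm pair. The microfold genes Gp2 (419, 89.3, 309 and 102 TPM), Ccl20 (194, 20.2, 69.3 and 22.7 TPM) and Spib (157, 23.5, 119 and 33.2 TPM) were among the highest, together with Ly6d (414, 118, 388 and 156 TPM). The tuft genes Avil (48.5, 17.9, 108 and 29.3 TPM), Trpm5 (15.9, 7.36, 38.5 and 9.54 TPM) and Pou2f3 (19.3, 4.71, 22.6 and 9.24 TPM), with the latter encoding the tuft cell regulator, were highest in PBS day 7 replicate 1. The keratinocyte genes Krt10 (48.1, 12.5, 52.96 and 19.2 TPM) and Ivl (a ratio of 18.7 between the highest and lowest library) and the ciliated cell regulator Foxj1 (4.87, 0.64, 3.92 and 1.14 TPM) had the order of the TEC list, with both libraries of the mm pair higher. Of the muscle genes, Myog stood at 6.55, 0.40, 2.77 and 1.14 TPM, while Ckm was near the detection limit and did not pass 0.41 TPM in any library.

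EC genes were steadier than TEC genes, and in the mm pair they were lower than the TEC keratins. In the k pair the 2 groups overlapped, with Plvap in PBS day 4 replicate 2 and Cldn5 in PBS day 7 replicate 2 above Krt14. Pecam1, the EC adhesion molecule CD31, stood at 157, 102, 155 and 105 TPM, with a mean of 129.7 ± 30.4 (SD, n = 4). Kdr, the main VEGF receptor, stood at 148, 51.4, 161 and 97.9 TPM, Cldn5, a tight junction protein, at 237, 143, 252 and 210.5 TPM, and Plvap, of fenestrated vessels, at 198, 239, 229.96 and 154 TPM. Of 10 EC genes, 7 were higher in both libraries of the mm pair in TPM, but 3 after TMM. The median SD was 0.34 for the EC list and 0.81 for the TEC list. Selp, the P-selectin of thymic portal ECs, was the 1 EC gene lower in both, at 5.59, 14.5, 5.88 and 6.69 TPM. Lymphatic EC genes were low, the 3 listed summing to 9.87, 13.4, 10.4 and 7.06 TPM. Flt4 had the highest mean of the 3, while Prox1 stood at 2.12, 0.89, 3.06 and 0.75 TPM and Lyve1 at 0.67, 3.17, 0.15 and 0.44 TPM.

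**Figure D3:**
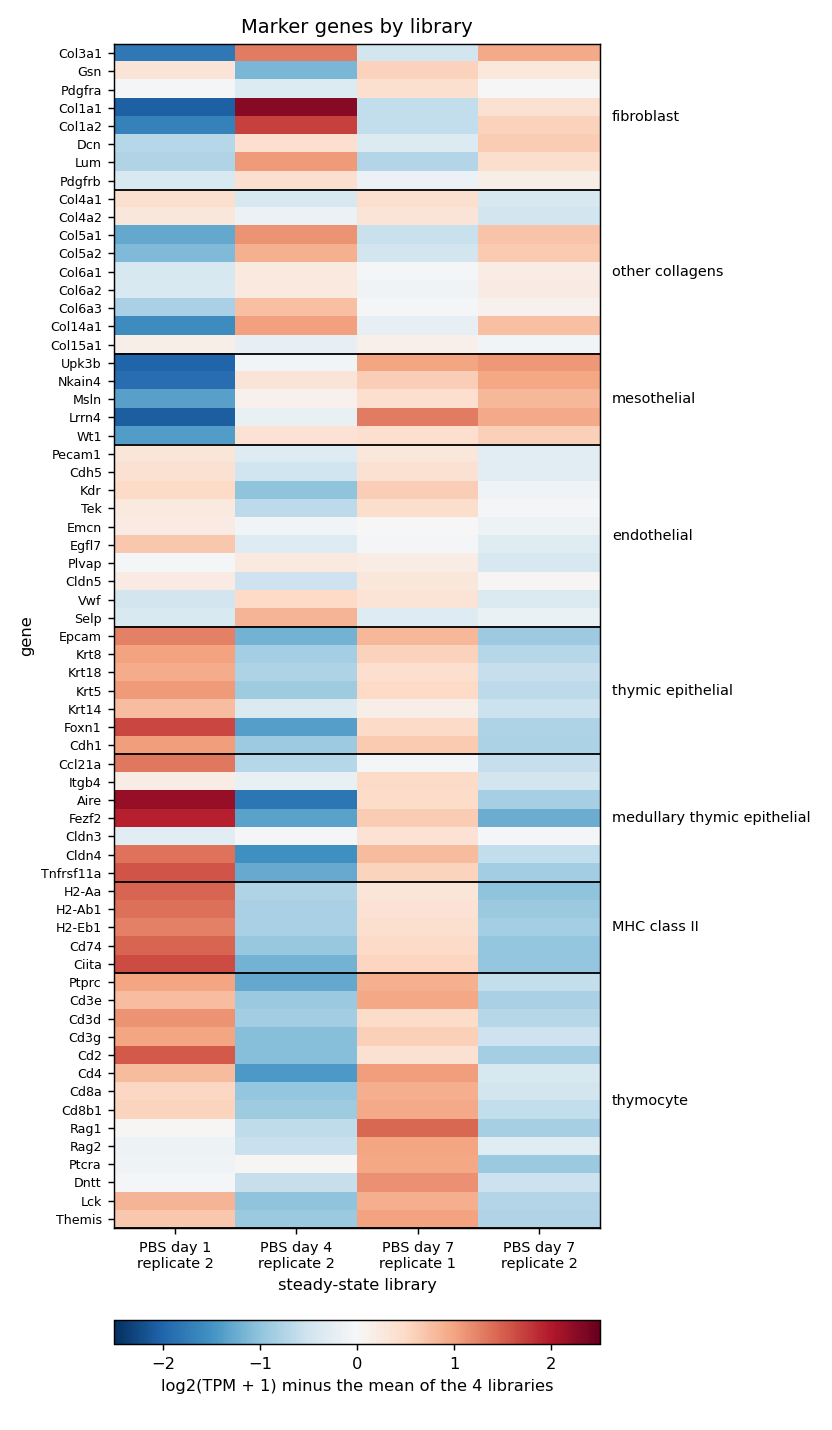
Departure of log2(TPM + 1) from the mean of the 4 steady-state libraries for the genes of 8 lists (rows) in each library (columns), with red above and blue below the mean. Fibrillar collagens are blue in PBS day 1 replicate 2 and red in PBS day 4 replicate 2, and the TEC, MHC class II and thymocyte rows show the reverse.

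Genes of cells that a CD45- sort should leave out were also read. Ptprc itself stood at 20.6, 3.51, 19.1 and 6.15 TPM and was not at 0 in any library. The 14 thymocyte genes summed to 740.5, 242, 892 and 292 TPM, led by Cd8b1 at 173, 63.4, 227 and 77.1 TPM, and 13 of them were higher in both libraries of the mm pair, or 12 after TMM. Macrophage genes summed to 335, 65.5, 186 and 91.3 TPM, led by Lyz2 at 272, 35.7, 119 and 49.96 TPM, neutrophil genes to 172, 39.8, 222 and 57.9 TPM, and B cell genes to 15.7, 5.800, 14.4 and 7.63 TPM. The 5 MHC class II genes, which TECs, dendritic cells and macrophages all make, summed to 13445, 2739, 6745 and 2606 TPM, and all 5 were highest in PBS day 1 replicate 2. H2-Aa stood at 1606, 349.9, 725 and 292 TPM, and Ciita, which switches these genes on, at 34.7, 4.06, 15.7 and 4.86 TPM. Thus TEC and MHC class II genes and most thymocyte, macrophage, neutrophil and B cell genes were higher in the same pair of libraries. Plasma cell genes went the other way, summing to 370, 3333, 585 and 902 TPM. Of these 3 genes, 2 were lower in both libraries of the mm pair and 0 were higher. The part of leukocyte RNA in the class II level was not tested.

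Genes that parathyroid and fat are known for differed widely between libraries. Pth, parathyroid hormone, stood at 545, 559.9, 84.4 and 12.1 TPM, and Gcm2, the regulator of parathyroid development, at 1.03, 0.39, 0.13 and 0.043 TPM. Chga, a granule protein of endocrine cells that was listed with the mimetic genes, was high in the same 2 libraries as Pth, at 173, 171, 52.3 and 13.1 TPM. Adipoq, the adipokine made by fat cells, stood at 4.88, 104, 2.94 and 40.8 TPM and Plin1, which coats lipid droplets, at 0.19, 3.63, 0.32 and 2.48 TPM, both higher in the k pair. Fabp4, which ECs make too, had another order, at 697, 235, 341 and 427 TPM. Schwann cell genes summed to no more than 13.4 TPM in any library.

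Factors that support thymocytes were read as a list of 10. Cxcl12, the chemokine with the highest level on the list, stood at 295, 222, 239 and 177 TPM and Bmp4, a regeneration signal from ECs and FBs, at 88.1, 22.7, 78.9 and 44.2 TPM. Il7, the cytokine that thymocytes need to survive, stood at 45.1, 11.3, 20.9 and 10.5 TPM, and Kitl, the stem cell factor, at 40.6, 14.04, 43.98 and 19.98 TPM. Fgf7 (23.4, 37.5, 17.3 and 22.3 TPM) and Fgf10 (48.2, 13.8, 47.7 and 18.9 TPM), FB ligands of a receptor on TECs, differed in order between libraries. Of the 10 factors, 7 were higher in both libraries of the mm pair and 2 were lower, Igf1 at 45.7, 210.2, 76.2 and 192 TPM and Wnt4 at 3.74, 4.98, 4.404 and 6.66 TPM, while after TMM 5 were higher and 3 lower. The sum of all 10 nevertheless kept to 633, 544, 552 and 512 TPM, a ratio of 1.24.

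Immediate early genes, which cells switch on quickly after a stimulus, were high in every library and highest in PBS day 1 replicate 2 for all 11 listed genes. Fos stood at 3385, 1419, 1060 and 1585 TPM, Jun at 2457, 537, 1049 and 893 TPM, Egr1 at 1589, 454, 478 and 498 TPM, and the heat shock gene Hspa1a at 293, 70.6, 129.7 and 150.5 TPM. Their sum was 13411, 4359, 4861 and 5412 TPM. Mitochondrial genes took 8.32%, 2.05%, 5.26% and 3.33% of TPM. The 79 ribosomal protein genes took only 1.06%, 1.61%, 0.79% and 1.22% of TPM. Their many near-identical pseudogenes share reads with them, and a counter at its defaults leaves out reads that map to several places, whose part in this share was not tested. In PBS day 1 replicate 2 the immediate early, mitochondrial, TEC and MHC class II levels were all at their highest and the FB matrix at its lowest, and their parts in each other were not tested.

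Variation between the 4 libraries was measured for each gene as the SD of log2 normalized CPM. Of 11065 genes with a mean of at least 5 TPM, 725 (6.55%) had an SD over 1, and the median SD was 0.32. Counting error alone would give a median of 0.04. Of the 725 genes with an SD over 1, 52.0% were higher in both libraries of the mm pair and 29.4% lower (51.4% and 31.7% after TMM), but a gene with a large spread is more readily ordered, and the SD and this order come from the same values. The common biological coefficient of variation from edgeR was 0.381 for the 4 libraries, against 0.431, 0.323 and 0.382 for the 3 libraries each of days 1, 4 and 7. It was 0.341 without PBS day 4 replicate 2 and 0.422 without PBS day 7 replicate 1.

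**Figure D4:**
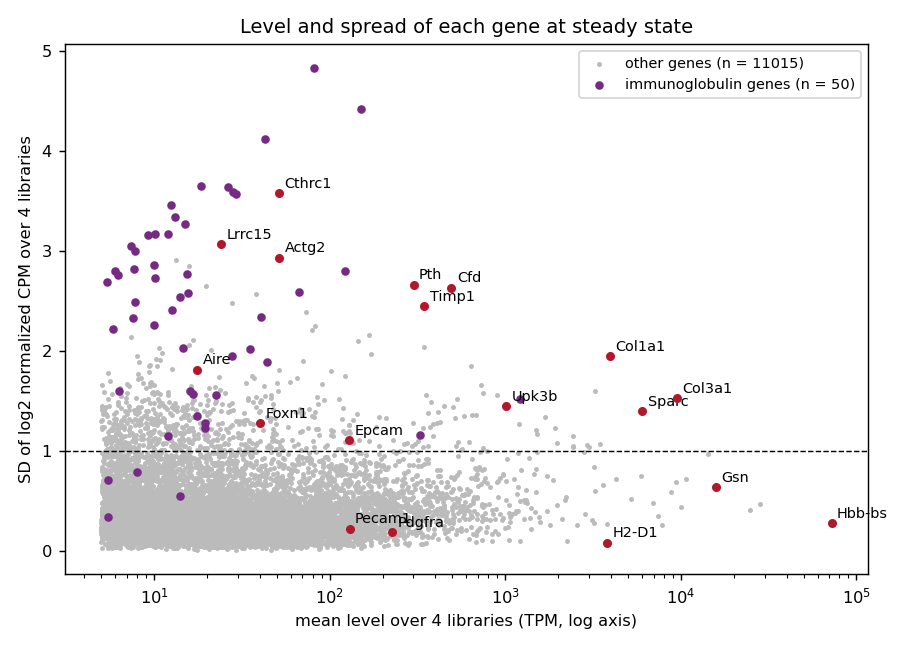
Mean level in TPM (log axis) against the SD of log2 normalized CPM over the 4 steady-state libraries, for each gene with a mean of at least 5 TPM. The dashed line marks an SD of 1, and 46 of the 50 immunoglobulin genes lie above it.

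Of the 30 most variable genes, 23 were immunoglobulin genes, and 22 of these were variable region (V) genes, each of which a clone of B or plasma cells uses or does not use. Of the 50 immunoglobulin genes with a mean of at least 5 TPM, 46 had an SD over 1. Igkv4-91, on chromosome 6, had the largest SD of all, 4.83, from 0, 645, 1 and 516 counts. Igkv15-103 had 111, 3256, 3 and 2 counts, and Ighv7-1, on chromosome 12, had 0, 920, 1 and 2. Counts of 3 or fewer are taken as the floor of detection here, so each of these V genes was at the floor in at least 2 libraries. Of the 22 V genes, 11 were highest in PBS day 4 replicate 2, 5 in PBS day 7 replicate 1, 6 in PBS day 7 replicate 2 and 0 in PBS day 1 replicate 2.

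The leading heavy chain V gene differed between all 4 libraries. The leading kappa V gene differed too, except that Igkv15-103 led in both PBS day 1 replicate 2 and PBS day 4 replicate 2. In PBS day 4 replicate 2, Igkv15-103 took 36.4% (95% exact interval 35.4 to 37.5%) of the 8934 kappa V counts and Ighv7-1 took 48.9% (95% exact interval 46.6 to 51.2%) of the 1881 heavy chain V counts. In PBS day 7 replicate 1, Igkv12-89 took 27.0% (95% exact interval 24.7 to 29.4%) of 1401 kappa V counts and Ighv10-1 took 39.0% (95% exact interval 35.5 to 42.6%) of 754 heavy chain V counts. In PBS day 7 replicate 2, Igkv4-91 took 40.8% (95% exact interval 38.0 to 43.5%) of 1266 kappa V counts. Ighv12-3 took 17.5% (95% exact interval 14.1 to 21.3%) of 457 heavy chain V counts there. In PBS day 1 replicate 2 the use was more even, with Igkv15-103 at 12.4% (95% exact interval 10.3 to 14.8%) of 894 kappa V counts. Ighv6-3 took 12.7% (95% exact interval 9.2 to 16.8%) of 316 heavy chain V counts there. These intervals cover counting error only, since reads are not independent molecules, and V genes share sequence, so reads can be split among relatives. The plasma cell genes stood highest in PBS day 4 replicate 2 as well: Igkc, the kappa constant region, at 335, 3115, 542 and 849 TPM, Jchain, which joins antibody multimers, at 29.9, 197, 38.7 and 49.4 TPM, and Mzb1 at 4.68, 20.4, 4.57 and 3.31 TPM.

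Without the immunoglobulin genes, 679 genes had an SD over 1, of which 50.2% were highest in TPM in PBS day 1 replicate 2 and 22.97% in PBS day 4 replicate 2, against 25.5% and 25.6% of all 11065 genes. Only at the head of this list, which was made after these values were seen, did PBS day 4 replicate 2 lead, with 23 of the 30 most variable genes highest there. A first group belongs to matrix-making or contractile mesenchyme. Cthrc1, secreted by activated FBs, stood at 1.79, 169, 1.03 and 34.4 TPM, Lrrc15, a membrane protein of such FBs, at 2.13, 55.6, 0.91 and 37.7 TPM, and Ccn4, a matricellular protein of the Wnt pathway, at 1.96, 61.7, 1.499 and 13.9 TPM. Tnn, a tenascin, stood at 3.01, 33.4, 1.58 and 4.71 TPM, C1qtnf3 at 4.62, 92.99, 2.15 and 11.7 TPM and Spp1, osteopontin, at 57.00, 248, 17.7 and 7.79 TPM. Actg2, the actin of visceral smooth muscle, was high in PBS day 4 replicate 2 alone, at 4.33, 194, 3.07 and 4.76 TPM. Lrrc15, Mgarp (0.71, 26.1, 1.001 and 25.8 TPM) and Cpz (14.5, 289, 57.6 and 222 TPM) were high in both libraries of the k pair.

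A second group consists of genes that fat cells or the acute phase response are known for. Cfd, the adipokine adipsin, stood at 59.5, 1782, 39.9 and 90.2 TPM, Cyp2e1 at 9.63, 255, 9.22 and 21.3 TPM and Car3, a carbonic anhydrase of fat and muscle, at 52.7, 368, 24.4 and 242 TPM. Hp, haptoglobin, stood at 25.4, 512, 28.9 and 105 TPM, Saa3, an acute phase protein, at 25.4, 265, 10.7 and 15.2 TPM and Timp1, an inhibitor of matrix proteases, at 40.8, 1162, 37.7 and 139 TPM. Each was highest in PBS day 4 replicate 2, and Cfd there was 44.7 times the lowest library. Only 3 of the 30 were higher in both libraries of the mm pair, Gm6637 (44.9, 2.28, 14.9 and 1.49 TPM), Cdx1, an intestinal homeobox gene (70.98, 3.25, 30.8 and 5.297 TPM), and Tff3, a mucosal trefoil peptide (24.9, 1.49, 15.2 and 1.45 TPM).

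At the edge of the 30 most variable genes, Ccn4 was the last inside with an SD of 2.65, and the next gene, Cfd, had an SD of 2.63. At the other end, the 10 protein-coding nuclear genes with the smallest SD among the 500 most abundant genes had SDs from 0.06 to 0.0998, against a median of 0.45 over the 483 protein-coding nuclear genes among them. Cat, which breaks down hydrogen peroxide, stood at 296, 233, 304 and 289.97 TPM. The 10 held 3 MHC class I heavy chains, H2-D1, H2-K1 (2505, 1888, 2287 and 2359 TPM) and H2-T23 (383, 290.02, 370.4 and 315 TPM), while the class II genes were among those that varied. Actn4, an actin crosslinker, stood at 356, 264, 366 and 330.2 TPM and Plpp1, a lipid phosphatase, at 266, 246, 284 and 277 TPM.

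Whether the order of the pairs went with the tag was also read in the 9 irradiated libraries, which were not used to define it. In a fit with day as a term, libraries whose tags begin with m were compared with those whose tags begin with k. All 3 libraries of day 7 carry k tags and add nothing to the difference between tags, which rests on 3 libraries with m tags and 3 with k tags from days 1 and 4. Genes with an SD over 1 that were higher in the mm pair at steady state had a median log2 difference of 1.91 there and of -0.40 between these irradiated libraries (361 genes). Those that were lower in the mm pair had medians of -2.07 and 0.47 (212 genes). The sign was shared by 31.9% and 25.9% of them, against 59.0% of all 11020 genes compared. The irradiated libraries with m and k tags did differ from each other. This fit called 2899 of the 11020 genes, and 49 of the 361 and 44 of the 212. The libraries of day 7 entered its filter, normalization and estimate of spread, and so had a part in these calls. The part of the tag in the order at steady state was not tested. The 725 genes had a median SD of 0.54, 0.42 and 0.65 among the libraries of days 1, 4 and 7, against 0.38, 0.23 and 0.32 for all 11065 genes, so genes that varied more at steady state also had the larger SDs on each of those days.

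To show where the steady-state profile stood apart from the rest of the series, the mean of days 1, 4 and 7 was compared with steady state by edgeR's quasi-likelihood test over 19984 genes. Of these, 21 (0.105%) rose and 46 (0.23%) fell after TBI, with an adjusted p of 0.05 or less. Of the 30 most abundant nuclear genes at steady state, 5 fell and 0 rose. All 5 were erythroid, and none of the other 25 passed the test. Of the 725 genes with an SD over 1, 1 fell (Crp) and 0 rose, and of the 30 most variable genes none passed. The SD over 1 was taken in the steady-state arm of this same test and widens its error, so few calls among these genes follow from the choice and are not read as a result. The median log2 fold change was -0.16 for the 30 most abundant nuclear genes, -0.48 for the 725 genes and -0.10 for all genes tested.

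Erythroid genes fell after TBI: 7 of the 8 measured members passed, with a median log2 fold change of -4.92. Hbb-bs, at 47993 to 91149 TPM at steady state, ranged over 10.7 to 40369 TPM in the irradiated libraries, with a log2 fold change of -5.33 ± 0.93 (SE, adjusted p = 5.0e-05). Group means were 21008, 22.1 and 13958 TPM at days 1, 4 and 7. Alas2, at 1684 TPM or more at steady state, ranged over 4.86 to 1062 TPM, with a log2 fold change of -4.68 ± 0.81 (SE, adjusted p = 5.0e-05). For Hbb-bs, Hba-a1 and Alas2 the irradiated and steady-state libraries did not overlap, while for Hba-a2, Hbb-bt and Slc4a1 they did. Klf1 did not pass, with a log2 fold change of 0.58 ± 0.81 (SE, adjusted p = 0.77). Globin took 13.8%, 6.92%, 12.8% and 9.78% of TPM at steady state and from 0.0015% to 5.96% in the irradiated libraries, so other genes' TPM at steady state is lowered by this share.

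Interferon-stimulated genes were the other listed group with calls. Of 6, 4 rose and 0 fell, with a median log2 fold change of 1.34. Ifit3, an interferon-induced inhibitor of viral RNA, stood at 148, 101, 124 and 109.8 TPM at steady state and had group means of 2848, 191 and 123 TPM at days 1, 4 and 7, with a log2 fold change of 1.69 ± 0.38 (SE, adjusted p = 0.007). Isg15, a ubiquitin-like modifier, stood at 172, 125, 128 and 134 TPM and had group means of 2068, 169 and 169 TPM, with a log2 fold change of 1.41 ± 0.35 (SE, adjusted p = 0.031). Irf7 and Oas1a also rose, by 1.46 ± 0.37 (SE, adjusted p = 0.04) and 1.28 ± 0.33 (SE, adjusted p = 0.043). The libraries of the 2 groups overlapped for all 4, and the high values were those of day 1. No more than 1 of these 4 calls was kept without any single library of 3 of the 4 at steady state, PBS day 1 replicate 2 (1), PBS day 7 replicate 1 (0) or PBS day 7 replicate 2 (1), and 0 with the replicate number as a block. Of the irradiated libraries, leaving out day 4 replicate 2, day 4 replicate 3, day 7 replicate 1 or day 7 replicate 3 also kept 1 call. Each of the others left out kept 2 to 4, and tag family as a covariate kept 2.

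**Figure D5:**
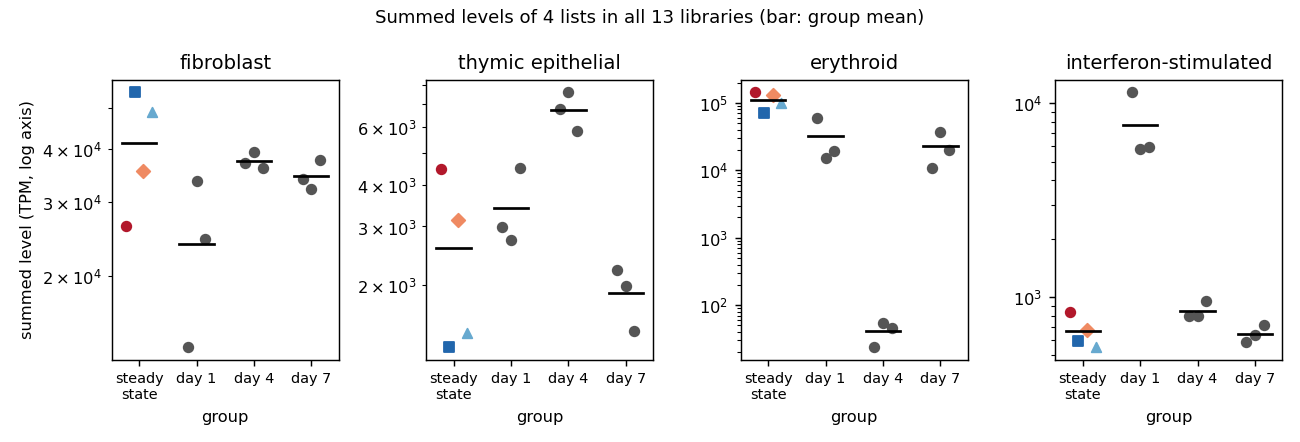
Summed TPM (log axis) of 4 lists in each of the 13 libraries, by group, with bars for group means; coloured symbols are the 4 steady-state libraries as in the plot of the most abundant genes and grey points are irradiated ones. Erythroid sums lie at 70879 TPM or above at steady state and at 60639 TPM or below after TBI, while TEC and FB sums of the steady-state libraries overlap those after TBI.

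No member of the other 28 lists passed the test. Col3a1 ranged over 3942 to 12934 TPM in the irradiated libraries, within its steady-state range, and had a log2 fold change of -0.52 ± 0.51 (SE, adjusted p = 0.67). Gsn had a log2 fold change of -0.81 ± 0.31 (SE, adjusted p = 0.25), Epcam of -0.82 ± 0.60 (SE, adjusted p = 0.56), Pdgfra of 0.06 ± 0.18 (SE, adjusted p = 0.89) and Pecam1 of 0.24 ± 0.21 (SE, adjusted p = 0.63). For FB genes the median was -0.44, for TEC genes 0.04, for EC genes 0.23 and for thymocyte genes -1.37. Aire came nearest to a call among TEC genes, at -2.49 ± 0.73 (SE, adjusted p = 0.098), with 0.75 to 8.63 TPM in the irradiated libraries against 2.12 to 48.9 TPM at steady state. The contrast averages 3 days after TBI that differ among themselves, and a p over the threshold does not show that the levels were equal.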

How the data were processed

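CD45- thymic cells of 2-mo mice were profiled by bulk RNA-seq at steady state (4 libraries) and on 3 days after TBI, days 1, 4 and 7 (3 libraries per day). Per the submitters' processing notes and the study's methods, the authors used Trimmomatic 0.38 to trim paired-end reads and STAR 2.7.0e to align them to GRCm38.p5 (mm10), and counted genes with featureCounts 1.6.3 at its defaults. At its defaults featureCounts leaves out reads that map to several places and does not use strand, so genes with near-identical copies, and overlapping or antisense genes, are uncertain. The deposited counts of 53379 genes are whole numbers and not normalized, and the deposited table also gives each gene's exonic length, a column without normalization. All 13 columns were used. The columns of the steady-state libraries match the group by name but do not carry the labels' replicate numbers. Nothing in the labels says which libraries came from separate animals, and p-values then measure the spread between these libraries, which may be technical.

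TPM was computed from the deposited counts and lengths with pandas 2.3.3 in Python 3.11.15. The SD between libraries was computed from log2 CPM with TMM factors of the 4 libraries and a prior count of 2, for genes with a mean of at least 5 TPM. The test was edgeR 4.0.16 (R 4.3.3) with the quasi-likelihood F-test on all 13 libraries, filterByExpr() by condition (19984 genes kept), TMM, and Benjamini-Hochberg adjustment over all genes kept, with the mean of days 1, 4 and 7 minus steady state as the contrast. SEs were derived from the fold change and its p. The genes named are the 30 highest by mean TPM with and without mitochondrial genes, the 30 with the largest SD, the 10 steadiest protein-coding nuclear genes of the 500 most abundant, Col3a1, Gsn, Epcam, Pdgfra, Pecam1, and the members of 30 lists of markers and functions (207 genes, of which 1 was not in the table). The members and lists were chosen with earlier results of these data known. Values of 2 members of these lists are not reported here. Symbols came from GENCODE M21 (GRCm38), which named 53274 of the genes. The steps were tested on simulated data, where the test recovered 100% of 200 changed genes among 19570 with 5.66% false calls. The planted changes were large and equal in all irradiated libraries. Every gene had the same spread, and the split of the steady-state libraries into pairs was not simulated. This recovery is therefore a check of the steps and not the power of the test on these data. Replicate numbers in the column names did not pair libraries. Alternatives were another normalization, filter, tool or block, and each library left out in turn.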

Additional observations from a re-analysis of the deposited data

Results flagged for a closer look

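Among 176 values examined over the 4 steady-state libraries (the genes named above, the list sums and 4 library shares), 18 had 1 library far from the other 3. Chance flags about 1 in 20 groups, or 8.8 of this number, but the values include the genes chosen for the largest SD between these same libraries and members of shared lists, so the number is not read as an excess. Of the 18, 14 were high in PBS day 4 replicate 2.

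In PBS day 4 replicate 2, mesenchymal genes stood apart: Actg2 was at 194 TPM against 3.07 to 4.76 in the others, C1qtnf3 at 93.0 against 2.15 to 11.7, and Tnn at 33.4 against 1.58 to 4.71. So did genes of fat and the acute phase. Cfd was at 1782 TPM against 39.9 to 90.2, Cyp2e1 at 255 against 9.22 to 21.3, Timp1 at 1162 against 37.7 to 139, Hp at 512 against 25.4 to 105, and Saa3 at 265 against 10.7 to 25.4. Antibody genes were the third group, with Igkv15-103 at 582 TPM against 0.57 to 20.6, Ighv7-1 at 170 against at most 0.79, Jchain at 197 against 29.9 to 49.4, and Mzb1 at 20.4 against 3.31 to 4.68. Selp, at 14.5 TPM against 5.59 to 6.69, and Gm23935, at 38681 against 23129 to 25415, were high in the same library.

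In PBS day 1 replicate 2, the immediate early and heat shock list summed to 13411 TPM against 4359 to 5412 in the others, and its member Egr1 was at 1589 against 454 to 498. Ckm was at 0.41 TPM against 0.098 to 0.14, close to the detection limit. In PBS day 7 replicate 1, Ighv10-1 was at 58.4 TPM against at most 1.55.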

How the results depend on the processing

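Limits first: with 4 libraries that split into pairs, the spread of single genes and the split itself rest on few values, and 22501215 to 48419232 counts per library leave V genes and other rare transcripts at a few counts. No change after TBI was reversed for the named genes with a call under any alternative run. The mean sums of the FB, TEC, EC, mesothelial, erythroid and thymocyte lists each moved by less than 1 SD without mitochondrial genes and with TMM factors. They also did so without each library, but leaving out 1 of 4 values can never move a mean by 1 SD. That part is therefore not read as a result. The share of the 10 most abundant genes was 21.3% of TPM but 13.6% of CPM, where length is not divided out, and 18 of the 30 most abundant nuclear genes were shared with the ranking by CPM.

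The order of the pairs, recomputed after TMM as an alternative chosen after seeing the data, changed for 4097 of the 11065 genes and was reversed for 234 of them, leaving 1902 higher in both libraries of the mm pair (3599 in TPM) and 5313 lower (2679 in TPM). It was reversed for 1 of the 30 most abundant nuclear genes. In the TEC and erythroid lists it changed for none. Genes with an SD over 1 numbered 1815 with a mean of at least 1 TPM, 679 without immunoglobulin genes (chosen after seeing the data) and 456 to 938 without 1 library, with 456 without PBS day 1 replicate 2. Of the 30 most variable genes, 8 were shared with the ranking by edgeR's gene-wise dispersion and 18 to 26 with the ranking without 1 library, 18 being without PBS day 4 replicate 2. Of the 30 without immunoglobulin genes, 14 were shared at a mean of at least 1 TPM, and 15 to 25 without 1 library.

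Changed genes numbered 67 (21 higher, 46 lower) by the main test. DESeq2 called 431 (197 higher, 234 lower), no filter gave 217 (51 and 166), and at least 10 counts in every library gave 48 with 25 lower. Tag family as a covariate, chosen after seeing the data, gave 56. With the replicate number of the column names as a block, 24 were called (3 higher, 21 lower); same-numbered libraries deviated together by a mean correlation of -0.026 against 0.014 for other numbers, so the numbers were not taken to pair them. Leaving out 1 library gave 31 to 199 called, 2 to 61 higher and 29 to 138 lower. The lowest was without PBS day 7 replicate 1 and the highest without PBS day 4 replicate 2, at 31 and 199, while without PBS day 1 replicate 2 it was 39, without PBS day 7 replicate 2 it was 41, without either day 4 replicate 2 or 3 it was 39 and without day 7 replicate 3 it was 43. Of the 67 genes, 24 were kept under the block and 66 without PBS day 4 replicate 2. Erythroid genes called lower stayed at 7 except with at least 10 counts in every library, where 3 were called. Interferon-stimulated genes called higher went from 4 to 0 under the block, to 2 with tag family, and to between 0 and 4 without 1 library; the cause was not tested. The 11 named genes with a call kept their sign in every alternative that tested them and passed the threshold in 174 of these tests, with 31 losses among the interferon-stimulated genes. The median log2 fold change of all genes lay between -0.12 and -0.01.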

Other observations

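Genes of pericytes and smooth muscle cells, which wrap vessels, were read in the 4 steady-state libraries as well. Acta2, smooth muscle actin, stood at 572, 1084, 311 and 279 TPM, Myl9, a myosin light chain, at 401, 277, 236 and 205 TPM, Rgs5, a pericyte gene, at 179.7, 124, 112 and 73.8 TPM and Myh11, the smooth muscle myosin heavy chain, at 138, 26.6, 87.2 and 41.9 TPM. Acta2 was highest in PBS day 4 replicate 2, the library in which Actg2 stood apart, while Myh11 was lowest there.

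Proliferation genes were low at steady state. Mki67 stood at 2.900, 1.77, 5.46 and 1.76 TPM and Top2a at 5.22, 11.5, 14.7 and 5.21 TPM. The 6 genes summed to 68.7, 109.7, 82.7 and 60.01 TPM, against 47.5 to 677 TPM in the irradiated libraries, whose median was 71.4 TPM. Only day 7 replicate 2 (677 TPM) and day 7 replicate 3 (348 TPM) lay above the steady-state range. Dendritic cell genes summed to 5.69, 1.38, 5.36 and 2.35 TPM, with 1 of 4 reaching a mean of 1 TPM. The adipocyte list summed to 709, 384, 351 and 479 TPM, the plasma cell list to 370.05, 3333, 585 and 902 TPM and the lymphatic EC list to 9.87, 13.4, 10.4 and 7.06 TPM.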
